A study of Mus musculus with 12 samples.

Results

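Aminoacyl-tRNA synthetases join each amino acid to its tRNA, the step that precedes protein synthesis. Mammalian cells use separate nuclear genes for most of the enzymes of the cytosol and of mitochondria, and the symbols of the mitochondrial ones end in ars2. Several cytosolic synthetase genes are targets of ATF4, a transcription factor that is made under amino acid shortage and endoplasmic reticulum stress and that raises genes of amino acid synthesis and transport. The genes described here are 35 of the 54447 rows of the count table, taken by symbol. The list was made with earlier results of these data known. It holds 19 cytosolic synthetases (Aars, Cars, Dars, Eprs, Farsa, Farsb, Gars, Hars, Iars, Kars, Lars, Nars, Qars, Rars, Sars, Tars, Vars, Wars and Yars) and 16 mitochondrial ones (Aars2, Cars2, Ears2, Fars2, Hars2, Iars2, Lars2, Mars2, Nars2, Pars2, Rars2, Sars2, Tars2, Vars2, Wars2 and Yars2). Each symbol matched 1 row, and all 35 passed the filter on low counts. Gars and Kars each encode both the cytosolic and the mitochondrial form of their enzyme, as background, so those rows hold RNA for both compartments.

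RNA was sequenced from mouse fibroblasts (labelled mouse embryonic fibroblasts, and NIH3T3 in the study's methods) that carried N-VEGF, the N-terminal extension of a long form of VEGF-A, or NLS-N-VEGF, the same protein behind the nuclear localization sequence of Cas9. Both sequences stood under a doxycycline-inducible promoter in a lentiviral vector, and the cells were puromycin-selected populations. The 4 groups of 3 libraries were NLS-N-VEGF cells, untreated or given doxycycline (dox), and N-VEGF cells under the same pair of conditions. No parental cells without a vector and no dose or duration of dox were in the labels. Each label also carries a number and a 6-digit suffix whose meaning was not stated: every group had libraries 1 and 2 with one suffix, called suffix a here, and a further library 2 with the other, called suffix b. Nothing in the labels says that replicates were separate cultures, so p-values measure the spread between these libraries, which may be technical.

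Total counts per library lay between 13549331 and 18982127, and 3 counts, taken as the floor, corresponded to 0.158 to 0.221 counts per 1000000 (CPM), which covers counting error only. The transgene row held 5 to 12 counts in the 6 libraries without dox and 35 to 268 in the 6 with dox, in the direction of the labels. The 8 fibroblast markers examined lay between 64.6 and 5280 CPM, and no endothelial, leukocyte or epithelial marker exceeded 5.38 CPM in any library. The libraries of suffix b stood apart from the others across the genome, and library 1 of suffix a of N-VEGF cells without dox had the fewest features detected (19976). The class medians of the dox effect in each population and of the difference between those effects are also given for suffix a alone.

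The promoters of some cytosolic genes held the core of the element that ATF4 binds with a C/EBP partner. The letters TGATGNAA were searched on both strands in windows from 250 bases before to 50 bases after the start of each gene (RefSeq, build GRCm38.p6). Of the cytosolic members, 12 had a window and 5 of these held the letters, namely Aars, Gars, Iars, Tars and Yars. All 5 are among the 11 cytosolic genes listed here as ATF4 targets (Aars, Cars, Eprs, Gars, Iars, Lars, Nars, Sars, Tars, Wars and Yars), of which 7 had a window. None of the 5 other cytosolic windows and none of the 14 mitochondrial windows held them, against 3.97% of all 32851 windows. A match describes letters and does not show binding. The match nearest each gene's start is printed in 30 bases of the gene's own strand with the motif in capitals, because their genes recur in the comparisons that follow.
Yars, chr4:129189895-129189924, plus strand: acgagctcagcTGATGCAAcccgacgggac
Gars, chr6:55037960-55037989, plus strand: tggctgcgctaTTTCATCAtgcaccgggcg
Aars, chr8:111033840-111033869, plus strand: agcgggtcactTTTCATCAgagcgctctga
Iars, chr13:49682126-49682155, plus strand: cactgtcagtaTTGCATCAcctccagacgc
Tars, chr15:11399655-11399684, minus strand: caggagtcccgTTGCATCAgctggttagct

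Cytosolic synthetase genes were far more abundant than mitochondrial ones. Levels between genes are compared as normalised CPM per kb of exon, where CPM used edgeR's TMM scaling factors (trimmed M-value means) and exon length is that of the merged exons of the GENCODE annotation (build GRCm38). The median of the mean levels was 51.5 CPM per kb over the 19 cytosolic genes and 5.45 over the 16 mitochondrial genes. The highest cytosolic means were those of Nars, the asparagine enzyme, at 120 ± 10.9 CPM per kb (SD, n = 12 libraries), Gars, the glycine enzyme, at 118 ± 8.13, and Rars, the arginine enzyme, at 73.1 ± 6.94. Nars and Gars differed by less than their SDs. The lowest cytosolic means were those of Cars (cysteine) at 23.9 ± 1.24, Dars (aspartate) at 21.3 ± 1.12 and Eprs, which joins glutamate and proline in a fused enzyme, at 20.9 ± 1.27, and the last 2 also differed by less than their SDs. The low ranks depend on the length used, since the merged exons of Eprs come to 18102 bases and its longest protein-coding transcript to 4906. Per kb of the longest protein-coding transcript, a length tried after the data were seen, Eprs had 77.0 ± 4.69 CPM and ranked 10 of 19, and the lowest were Wars (tryptophan) at 37.0 ± 3.22, Dars at 42.7 ± 2.24 and Farsb, the beta subunit of the phenylalanine enzyme, at 43.1 ± 3.49. Nars and Gars stayed the highest, and the class medians became 77.0 and 8.41.

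The row of Lars2, the mitochondrial leucine enzyme, was the exception to the low mitochondrial levels, at 294 ± 333 CPM per kb. Its counts followed those of another row, Gm15564, at a ratio between 33.4 and 39.3, as described below. How much of its level is Lars2 messenger RNA was not tested. Without Lars2 the mitochondrial means ran from 1.51 to 12.9 CPM per kb, so every other mitochondrial gene had a lower mean than the lowest cytosolic gene. The next highest were Iars2 (isoleucine) at 12.9 ± 0.920 and Yars2 (tyrosine) at 9.99 ± 0.849. The lowest were Ears2 (glutamate) at 2.31 ± 0.164, Mars2 (methionine) at 1.87 ± 0.202 and Nars2 (asparagine) at 1.51 ± 0.215. Per kb of transcript the highest after Lars2 (836 ± 947) was Iars2 at 21.0 ± 1.49, and the lowest were Pars2 (proline), Nars2 and Mars2, so every mitochondrial mean but that of Lars2 stayed below every cytosolic one. The rarest members had 124 counts or more in every library.

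**Figure D1:**
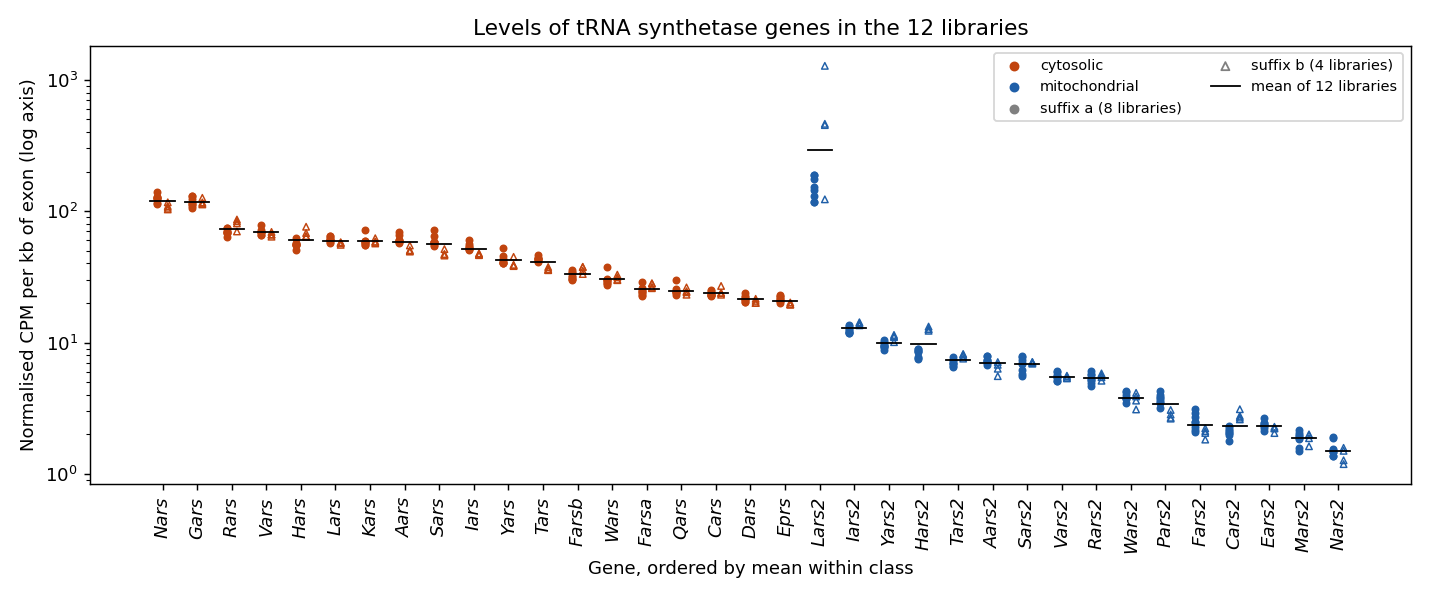
Normalised CPM per kb of exon (log axis) of each gene in each library, cytosolic genes in orange and mitochondrial genes in blue, with filled circles for the 8 libraries of suffix a, open triangles for the 4 of suffix b, and a bar at the mean of the 12. Every mitochondrial gene except Lars2 lies below every cytosolic gene, and Lars2 has the widest spread.

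Cytosolic and mitochondrial genes were paired by symbol, as in Aars and Aars2, which gave pairs for 12 amino acids. Phenylalanine (Farsa, Farsb and Fars2), glutamate (Eprs and Ears2) and proline (Eprs and Pars2) also had members of both classes but were not paired. In 11 of the 12 the cytosolic gene was higher per kb in every library, and the mean ratio over the 12 libraries had a median of 8.16. The smallest of those 11 ratios was Iars to Iars2 at 4.02 ± 0.542 (SD, n = 12) and the largest Nars to Nars2 at 80.7 ± 11.7. Lars to Lars2 was the exception, at 0.343 ± 0.168, with a range from 0.0449 to 0.552, and it carries the limit on the Lars2 row given above. Per kb of transcript the cytosolic gene was again higher in every library for 11 of the 12, with a median ratio of 6.99, and the same 3 pairs stood at 2.95, 69.5 and 0.162. The per-kb levels depend on how the authors' counting treated shared sequence, since the strand option was not stated. Runs of 50 or more bases shared with transcripts of another gene covered 37.2% of the Iars2 transcript (Rab3gap2), 26.2% of Iars (Gm4849), 23.1% of Aars (Exosc6), 22.3% of Cars2 (Naxd), 12.3% of Farsb (Sgpp2), 7.52% of Nars2 (C230038L03Rik), 6.76% of Vars2 (Gm20483), and 9.8% of Hars and 5.85% of Hars2, which share theirs with each other. The other members with such runs had 5.41% (Fars2) or less. How far the counts of these genes were affected was not tested, and the percentages do not bound it.

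Lars2 varied far more across the 12 libraries than any other member. The coefficient of variation of the normalised level lay between 5.13% and 13.4% for the cytosolic genes (median 8.11%) and between 5.36% and 22.6% for the other 15 mitochondrial genes (median 9.20%). The summed level of the 19 cytosolic genes ranged from 4577 to 5550 CPM, and that of the mitochondrial genes without Lars2 from 430.6 to 475 CPM. For Lars2 the coefficient was 113%.

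No synthetase gene was called as changed with dox in NLS-N-VEGF cells. With 1 mean per group in edgeR's quasi-likelihood test, 0 of 19 cytosolic and 0 of 16 mitochondrial genes had an adjusted p under 0.05, where 0.022% of all 13608 genes tested did. DESeq2 also called 0 members, and 1 member, Sars2, had an unadjusted p under 0.05. The cytosolic log2 fold changes ran from -0.10 (Farsa) to 0.14 (Eprs), with a median of 0.05 and 15 of 19 above 0. The mitochondrial ones ran from -1.12 (Lars2) to 0.16 (Mars2), with a median of 0.02 and 9 of 16 above 0. The median over all genes tested was 0.00. The cytosolic direction turned without library 1 of dox-treated NLS-N-VEGF cells, where 8 of 19 were above 0 and the median was -0.01. In the libraries of suffix a alone the cytosolic median was 0.07 (15 of 19 above 0) and the mitochondrial one -0.04 (5 of 16). The 95% intervals of all 19 cytosolic genes and of 13 of 16 mitochondrial genes lay within 0.5 log2 units of 0.

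In N-VEGF cells dox likewise gave 0 calls among the members in edgeR and in DESeq2, and 0 members had an unadjusted p under 0.05, against 0.0367% of all genes called. The cytosolic log2 fold changes ran from -0.10 (Farsa) to 0.07 (Nars) with a median of -0.02 and 7 of 19 above 0, and the mitochondrial ones from -1.10 (Lars2) to 0.26 (Nars2) with a median of 0.00 and 9 of 16 above 0. All 19 cytosolic intervals and 13 of 16 mitochondrial ones lay within 0.5 log2 units of 0. Without library 1 of N-VEGF cells without dox, 17 of 19 cytosolic values were above 0 and their median was 0.06. In the libraries of suffix a alone the cytosolic median was -0.10, with 4 of 19 above 0, and the mitochondrial one -0.02, with 7 of 16.

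The libraries with the same label varied together, so the fits were repeated with the label as a replicate block. It called 0 members in both populations, where it called 0.125% of all genes in NLS-N-VEGF cells and 0.11% in N-VEGF cells. Sars2 and Tars2 had an unadjusted p under 0.05 in NLS-N-VEGF cells in that fit, and no member did in N-VEGF cells. With the replicate block the intervals of all 19 cytosolic genes lay within 0.3 log2 units of 0 in each population. The mean dox effect over both populations was called for 0 members too, without the block (0.0588% of all genes) and with it (0.566%). Sars2 in the first fit, and Lars2 and Sars2 in the second, had an unadjusted p under 0.05. DESeq2 again called 0 members.

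**Figure D2:**
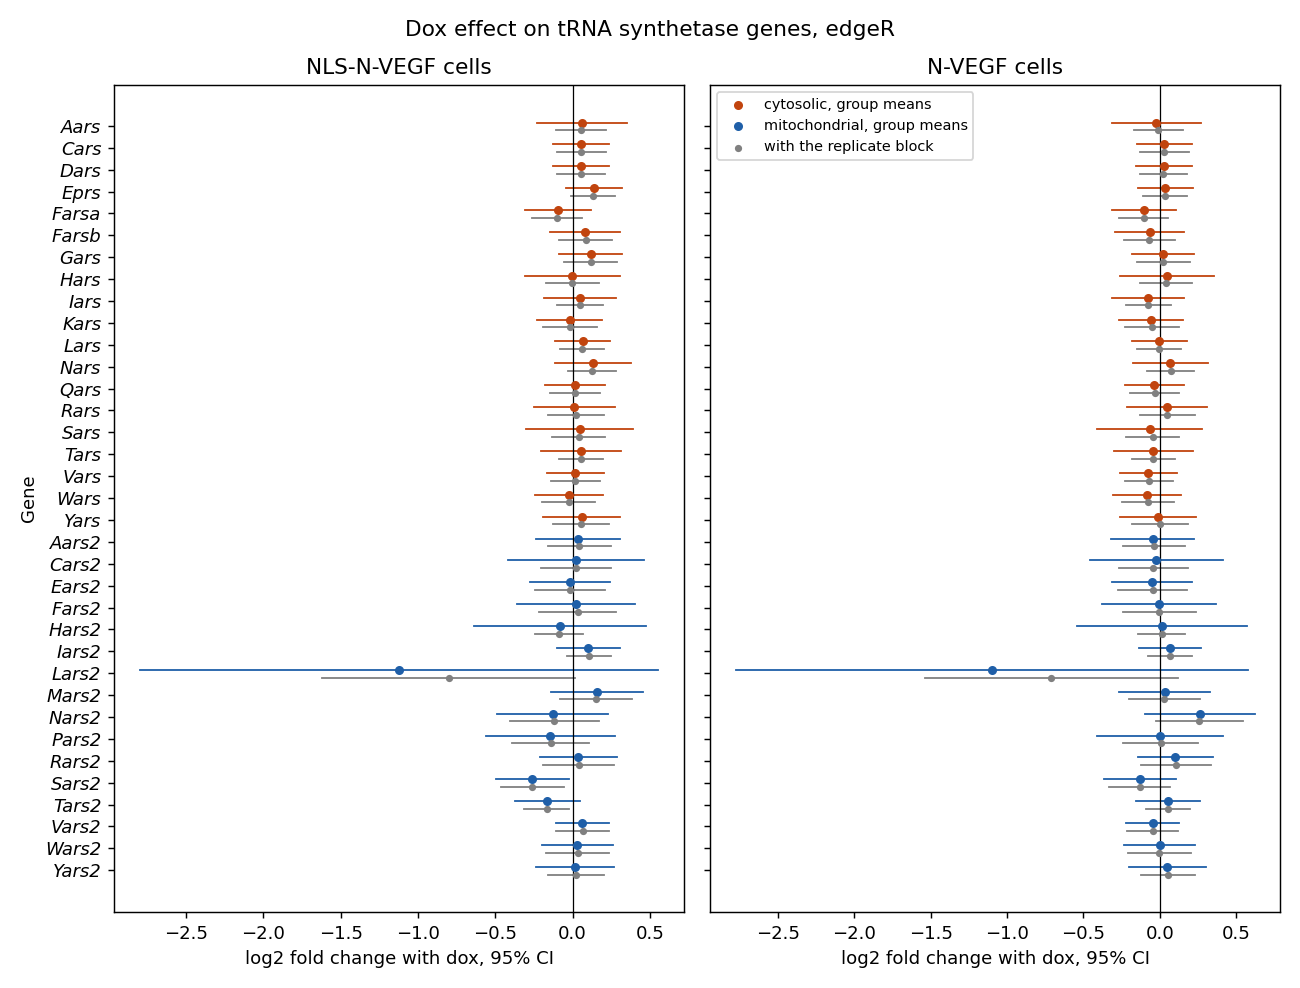
Log2 fold change with dox (x axis) and its 95% interval for each gene, in NLS-N-VEGF cells (left) and N-VEGF cells (right), with cytosolic genes in orange, mitochondrial genes in blue and the fit with the replicate block in grey. The cytosolic intervals all include 0 and stay within 0.5, and that of Lars2 is the widest.

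The largest mean dox effects among the cytosolic genes were small. Farsa, the alpha subunit of the phenylalanine enzyme (chr8:84856989-84869257, plus strand), had normalised levels of 114, 117 and 118 CPM in untreated NLS-N-VEGF cells (libraries 1 and 2 of suffix a, then 2 of suffix b) and 102, 104 and 120.2 CPM after dox. The N-VEGF population gave 130.1, 112 and 128 CPM untreated and 109, 107 and 127 CPM after dox. The groups overlapped in both populations. The log2 fold changes were -0.10 ± 0.10 (SE) in each population, with edgeR adjusted p-values of 0.9998 and 0.9999.

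Nars, on chromosome 18, leaned the other way. Its levels in the NLS-N-VEGF population were 538, 505 and 449 CPM untreated and 613, 557 and 462 CPM after dox, and each library was higher than its same-label partner. In N-VEGF cells they were 560.4, 495 and 476 CPM untreated and 551, 545 and 508 CPM after dox, higher in 2 of 3 same-label comparisons. The ranges overlapped in both populations, and the log2 fold changes were 0.13 ± 0.11 and 0.07 ± 0.11, with edgeR adjusted p-values of 0.9998 and 0.9999.

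Sars2, the mitochondrial serine enzyme (chr7:28741992-28753871, plus strand), was the mitochondrial member after Lars2 with the largest mean effect. The NLS-N-VEGF population gave 23.0, 26.2 and 23.5 CPM untreated and 18.5, 19.2 and 23.1 CPM after dox. The N-VEGF population gave 24.2, 25.9 and 22.9 CPM untreated and 20.5, 22.7 and 23.5 CPM after dox. It was lower with dox in all 3 same-label comparisons in NLS-N-VEGF cells and in 2 of 3 in N-VEGF cells. The log2 fold changes were -0.26 ± 0.11 and -0.13 ± 0.11, and with the replicate block the edgeR adjusted p was 0.526 in NLS-N-VEGF cells and 0.891 in N-VEGF cells.

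The dox effect did not differ detectably between the populations for any member. In the test of the difference (NLS-N-VEGF minus N-VEGF) edgeR called 0 members and 0% of all genes, with 0 members and 116 genes at an unadjusted p under 0.05. DESeq2 called 0 genes, and the replicate block called 0% as well, with Tars2 alone among the members at an unadjusted p under 0.05. The cytosolic differences leaned upwards, with 17 of 19 above 0, a median of 0.07 and extremes of -0.05 (Hars) and 0.15 (Farsb). All 11 cytosolic ATF4 targets were above 0, with a median of 0.08, and 6 of the 8 other cytosolic genes were. The mitochondrial differences had a median of 0.00, 8 of 16 above 0, and extremes of -0.39 (Nars2) and 0.12 (Mars2).

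That lean depended on single libraries. Within the same-label sets the cytosolic median of the difference was 0.26 for label 1 of suffix a, 0.02 for label 2 of suffix a and -0.12 for label 2 of suffix b. Without library 1 of N-VEGF cells without dox, 8 of 19 cytosolic genes and 5 of 11 ATF4 targets were above 0, and the cytosolic median was -0.01. Without library 1 of dox-treated NLS-N-VEGF cells 13 of 19 and 7 of 11 were above 0, with a cytosolic median of 0.02. In suffix a alone the cytosolic median was 0.14 (18 of 19 above 0) and the mitochondrial one -0.09 (6 of 16). The direction of the populations' difference without dox also turned on the first of these libraries. There all 19 cytosolic genes were lower in NLS-N-VEGF cells, with a median of -0.07 and extremes of -0.14 (Qars) and -0.01 (Rars), whereas 11 of 19 were higher once that library was left out, with a median of 0.01. In suffix a alone 1 of 19 was higher, with a median of -0.09. The mitochondrial values without dox had a median of 0.00, with extremes of -0.91 (Lars2) and 0.19 (Nars2). EdgeR called 0 members and 0% of all genes in that comparison, with 0 members and 82 genes at an unadjusted p under 0.05, DESeq2 called 0, and the replicate block called 0%, with Fars2 alone among the members at an unadjusted p under 0.05.

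With dox no member differed detectably between the populations either. EdgeR called 0 members and 0% of all genes, with 0 members and 160 genes at an unadjusted p under 0.05, DESeq2 called 0, and the replicate block called 0 members and 0.0147% of all genes. The cytosolic values (NLS-N-VEGF minus N-VEGF) had a median of 0.00 with extremes of -0.09 (Qars) and 0.06 (Eprs), and the mitochondrial ones a median of -0.05 with extremes of -0.93 (Lars2) and 0.17 (Wars2).

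Library 1 of untreated N-VEGF cells held more cytosolic synthetase RNA than any other library. Its summed cytosolic level was 5550 CPM, against 4577 to 5323 CPM in the other 11. The median cytosolic ATF4 target stood 0.16 log2 units above its own 12-library mean in it, and the median of the 8 other cytosolic genes 0.14. The 26 other ATF4 targets on the list stood 0.28 above theirs, also the highest of the 12. Next came library 1 of dox-treated NLS-N-VEGF cells, with 0.13 for the cytosolic ATF4 targets, 0.00 for the other cytosolic genes and 0.24 for the other ATF4 targets. What moved these genes in that library was not tested.

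**Figure D3:**
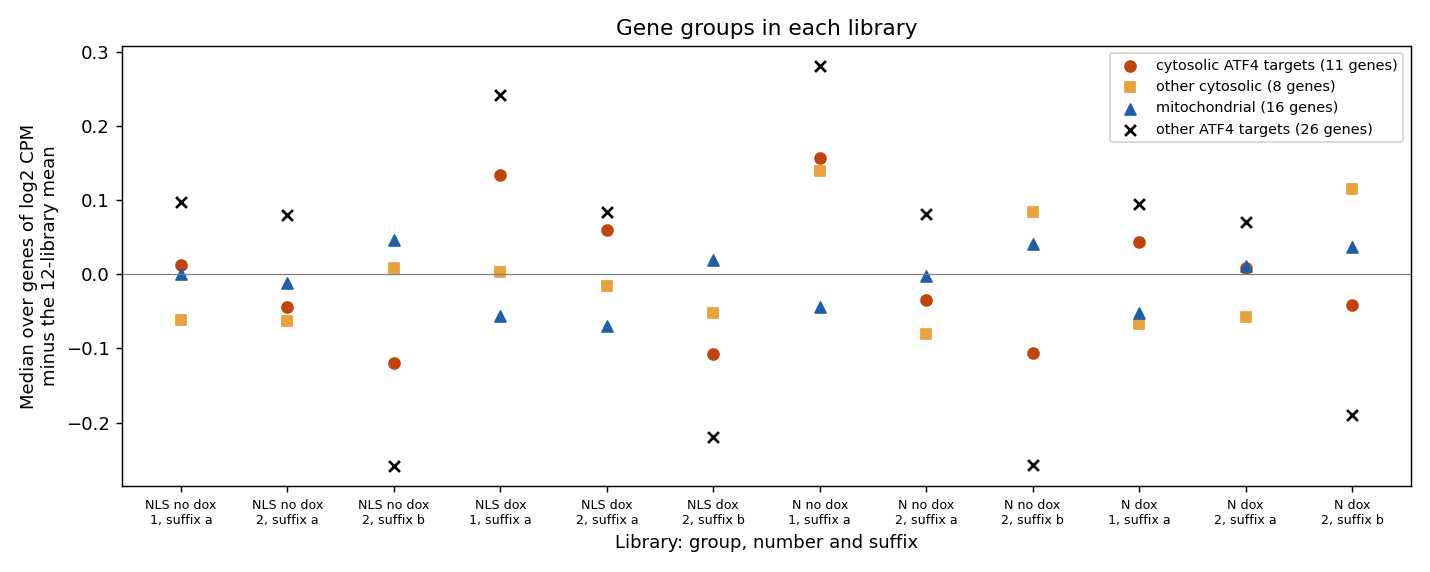
Median over the genes of a group of log2 CPM minus each gene's mean over the 12 libraries (y axis), per library (x axis), for 11 cytosolic ATF4 targets, 8 other cytosolic genes, 16 mitochondrial genes and 26 other ATF4 targets. In all 4 libraries of suffix b the cytosolic ATF4 targets lie below 0, between -0.12 and -0.04, and the other ATF4 targets between -0.26 and -0.19.

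Many synthetase genes differed between the suffixes of the labels, about as often as all genes did. Between suffix b and suffix a, with the group as a term in the fit, edgeR called 19 of 35 members, 10 cytosolic and 9 mitochondrial. The background in this contrast was high, since 45.6% of all genes tested were called (22.2% higher and 23.5% lower in suffix b). DESeq2 called 18 members, and the replicate block called 18, where it called 45.8% of all genes. The suffix cannot be told apart from anything else that the libraries carrying it share.

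The called cytosolic ATF4 targets were all lower in suffix b, and the called genes among the other cytosolic ones were all higher. Of the 11 ATF4 targets, 6 were lower in suffix b and 0 were higher, with a median log2 difference of -0.13. These were Sars (-0.32), Aars (-0.26), Tars (-0.25), Nars (-0.20), Iars (-0.20) and Eprs (-0.13). Of the 8 other cytosolic genes, 4 were called higher and 0 lower, and the 4 uncalled ones were below 0, with a median of 0.07 over the 8. Within dox-treated NLS-N-VEGF cells the median of these 8 was -0.06, with 2 above 0. The called ones were Hars (0.28), Rars (0.20), Farsb (0.15) and Farsa (0.14). The difference between the subsets was not tested, and the lists were chosen with earlier results of these data known. The shares called, 6 of 11 and 4 of 8, lie near the 45.6% of all genes called. Eprs lost its call with the replicate block (adjusted p = 0.0525), and across all alternatives 4 to 6 ATF4 targets were lower with 0 higher, and 1 to 4 of the other cytosolic genes were higher with 0 lower. The fewest, 4 lower ATF4 targets, came without the suffix b library of dox-treated NLS-N-VEGF cells, while 1 higher gene was left without either suffix b library of the N-VEGF populations and 2 without any of 7 other libraries. The 7 members of the multisynthetase complex, the large assembly that holds several cytosolic enzymes, were split, with Rars higher, Eprs and Iars lower and Dars, Kars, Lars and Qars uncalled. Yars and Gars, whose promoters held the motif printed above, had log2 differences of -0.10 and 0.00 and were not called, while Aars, Iars and Tars, which also held it, were lower.

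Sars, the serine enzyme (chr3:108424865-108445209, minus strand), had the largest cytosolic difference. Its normalised levels in the 8 libraries of suffix a ran from 281 to 367 CPM with a median of 299 CPM. In suffix b they were 243 and 240.2 CPM in the untreated and the dox-treated NLS-N-VEGF library and 236 and 264 CPM in those of N-VEGF cells. The 2 suffixes did not overlap, and the fitted difference was -0.32 ± 0.07 (SE), a fold of 0.800 (edgeR adjusted p = 0.00121). Aars, the alanine enzyme (chr8:111033144-111057664, plus strand), ran from 533 to 647 CPM with a median of 554 CPM in suffix a, and had 468, 462, 457 and 508 CPM in suffix b, again without overlap, with a difference of -0.26 ± 0.06 (edgeR adjusted p = 0.00282).

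Hars, the histidine enzyme, was the cytosolic gene most above the others. It ran from 124 to 152 CPM with a median of 136 CPM in suffix a, and had 158, 156, 167 and 186 CPM in suffix b. The suffixes did not overlap, and the difference was 0.28 ± 0.06 (edgeR adjusted p = 0.00117). Its neighbour Hars2, the mitochondrial histidine enzyme, lies head to head with it and shares sequence with it. Hars2 ran from 31.9 to 38.5 CPM with a median of 36.6 CPM in suffix a and had 54.0, 52.5, 54.2 and 56.6 CPM in suffix b. Every library of suffix b was higher, and the difference was 0.61 ± 0.06, a fold of 1.53 (edgeR adjusted p = 1.49e-06).

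The mitochondrial genes were split. Those higher in suffix b were Lars2 (1.65), Hars2 (0.61), Cars2 (0.42), Yars2 (0.20), Tars2 (0.17) and Iars2 (0.16), and those lower were Pars2 (-0.40), Fars2 (-0.30) and Aars2 (-0.19). Their median was 0.02, against -0.07 for the cytosolic genes and 0.01 for all genes tested. Cars2, the mitochondrial cysteine enzyme (chr8:11513977-11550783, minus strand), ran from 12.9 to 16.8 CPM with a median of 15.1 CPM in suffix a, and had 19.4, 19.98, 18.8 and 22.5 CPM in suffix b. The suffixes did not overlap, and the difference was 0.42 ± 0.08 (edgeR adjusted p = 0.000521). DESeq2 did not call Aars2 (adjusted p = 0.0568).

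The libraries of the suffixes did not overlap for 5 cytosolic genes (Aars, Hars, Iars, Sars and Tars) and 3 mitochondrial genes (Cars2, Hars2 and Pars2), where 28% of all genes tested did not overlap. On leaving out each of the 12 libraries in turn, Sars, Aars, Tars, Iars, Hars, Hars2, Lars2, Cars2, Pars2 and Tars2 kept their calls throughout. Farsa lost its call in 10 of those fits, Farsb in 9, Eprs in 8, Aars2 in 7, Rars and Fars2 in 3 each, Iars2 and Yars2 in 2 each and Nars in 1. The count of called members depended most on the suffix b library of untreated N-VEGF cells. Without it edgeR called 11 members, 5 cytosolic genes lower and 1 higher, and 4 mitochondrial genes higher and 1 lower.

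**Figure D4:**
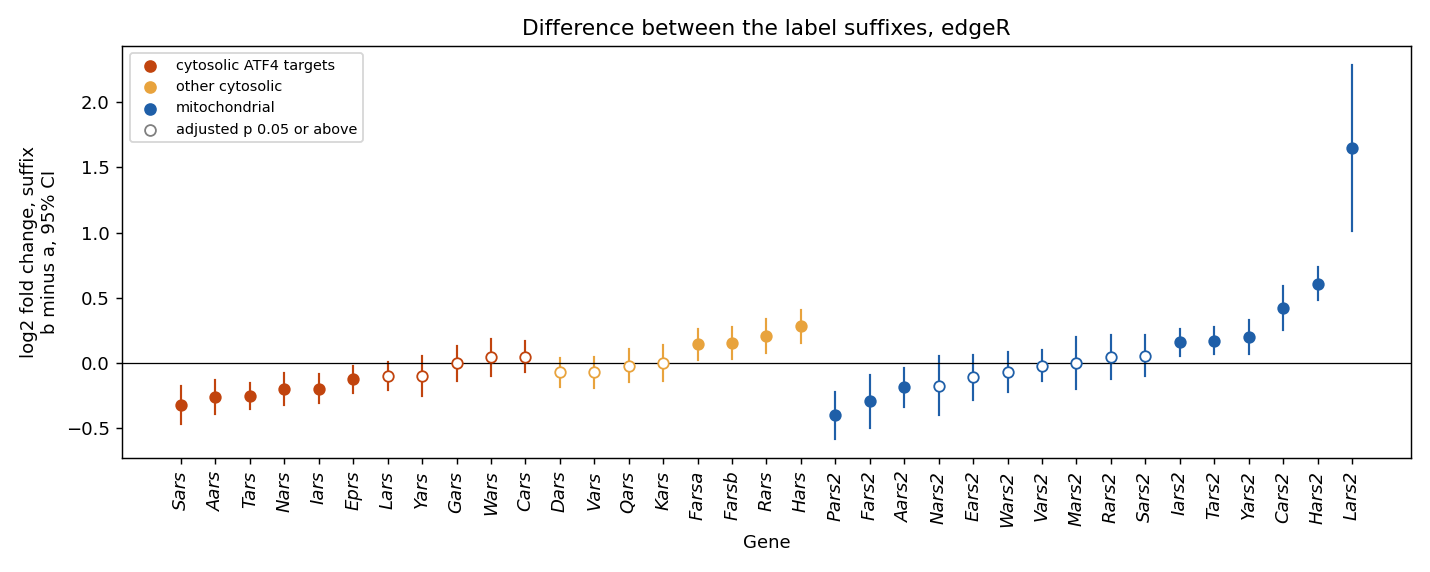
Log2 difference between suffix b and suffix a (y axis) with its 95% interval for each gene, ordered within cytosolic ATF4 targets, other cytosolic genes and mitochondrial genes, with open circles for genes not called by edgeR. The called cytosolic ATF4 targets all lie below 0 and the called other cytosolic genes all above, in lists chosen with earlier results of these data known.

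Other ATF4 targets and genes that work beside the synthetases were counted in the same contrast. Of the 26 other ATF4 targets, edgeR called 20 lower and 1 higher in suffix b, with a median of -0.36. The lower ones included Atf3, a stress-induced transcription factor (-1.61), Chac1, which degrades glutathione (-1.55), Trib3, a pseudokinase (-1.31), and Ddit4, an inhibitor of mTORC1 (-1.09), and Atf4 itself had -0.35. The 1 higher, the lipoprotein receptor Vldlr, held 0 or 1 count in each library of suffix a and 11 to 21 in those of suffix b, so it passed the filter only through suffix b. It was not tested when 10 counts were asked for in every library, where 18 of 24 were lower and 0 higher. Of the 11 partners of cytosolic charging, 3 were higher (Aarsd1 at 0.65, Dtd1 and Eef1d at 0.28) and 1 lower (Dtd2 at -0.21). Eef1d is a subunit of the exchange factor that reloads the elongation factor carrying tRNA to the ribosome, and Dtd2 removes wrongly joined amino acids. Of 20 partners of mitochondrial translation, 7 were higher and 3 lower, with a median of 0.14. These shares, 4 of 11 and 10 of 20, lie near the 45.6% of all genes called, so the following values only describe the lists. Those with the largest differences were the tRNA-modifying enzymes Trit1 (0.56) and Mto1 (0.42), the release factor Mtrf1l (0.35) and the formyltransferase Mtfmt (0.27) above 0, and the initiation factor Mtif3 (-0.48), the amidotransferase subunit Gatb (-0.28) and Hsd17b10 (-0.22) below.

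None of these lists was called in the dox comparisons. EdgeR called 0 of the 26 other ATF4 targets, 0 of the 11 charging partners and 0 of the 20 mitochondrial partners with dox in either population, with 0 of them at an unadjusted p under 0.05, and DESeq2 called 0 of them too. The replicate block also called 0 of them. In that fit 1 other ATF4 target in NLS-N-VEGF cells and 2 in N-VEGF cells had an unadjusted p under 0.05, where 989 and 735 of all 13608 genes did. The medians with dox were 0.09, -0.01 and -0.03 in NLS-N-VEGF cells and -0.04, -0.11 and 0.00 in N-VEGF cells, in that order.

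Lars2 (chr9:123366927-123462666, plus strand) stood apart from every other member. Its counts ran from 20593 to 243265, a range of 11.8-fold, and it took 0.123% to 1.40% of all counts of a library. Untreated NLS-N-VEGF cells had normalised levels of 2088, 2075 and 5125 CPM, and dox-treated ones 1308, 1598 and 1363 CPM. Untreated N-VEGF cells had 1293, 1945 and 14155 CPM, and dox-treated ones 1680, 1438 and 5009 CPM. The suffix b library was the highest of its group in 3 of 4 groups and overlapped the others in dox-treated NLS-N-VEGF cells. Within N-VEGF cells the groups overlapped, and in NLS-N-VEGF cells every library with dox lay below every library without.

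The log2 fold changes of Lars2 with dox were -1.12 ± 0.77 (SE) in NLS-N-VEGF and -1.10 ± 0.77 in N-VEGF cells, with 95% intervals from -2.80 to 0.55 and from -2.77 to 0.58 (edgeR adjusted p = 0.9998 and 0.9999). Without the suffix b library of untreated N-VEGF cells, the value in N-VEGF cells was 0.72, and without that of untreated NLS-N-VEGF cells the value in those cells was -0.56. When genes of low counts were kept in the fit (no filter beyond 1 count), Lars2 was called in both populations at a log2 fold change of -1.10, with an edgeR adjusted p of 4.33e-15 and 7.74e-15. The share of all genes called in that fit is not given here. The suffix difference was 1.65 ± 0.30 (edgeR adjusted p = 0.000365), and 1.03 without the suffix b library of untreated N-VEGF cells.

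The counts of Lars2 followed those of Gm15564, a row elsewhere in the genome that was looked at after the values of Lars2 were seen. Gm15564 held 552 to 6929 counts, a range of 12.6-fold, and the ratio of Lars2 to Gm15564 counts stayed between 33.4 and 39.3 in the 12 libraries. Its log2 differences were -1.18 and -1.10 with dox and 1.73 between the suffixes, beside -1.12, -1.10 and 1.65 for Lars2. A row of ribosomal RNA biotype, CT010467.1, had -0.82 and -0.96 with dox and 0.76 between the suffixes, and the ratio of Lars2 to its counts ranged from 1.26 to 3.24. The reference transcripts of Lars2 and Gm15564 share a run of 52 bases, at positions 3278 to 3329 of the 3894 bases of the Lars2 transcript, after the end of its coding sequence at 2905. The middle 30 bases of that run are shown, as part of the sequence that the 2 rows have in common.
Lars2, chr9:123462059-123462088, plus strand: gcgttggattgttcacccactaatagggaa
Where on Lars2 its reads lay is not given by counts per gene, and the part of the shared run in its level was not tested. Without Lars2, 18 of 34 members were called between the suffixes and the highest remaining mitochondrial mean was 12.9 CPM per kb.

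**Figure D5:**
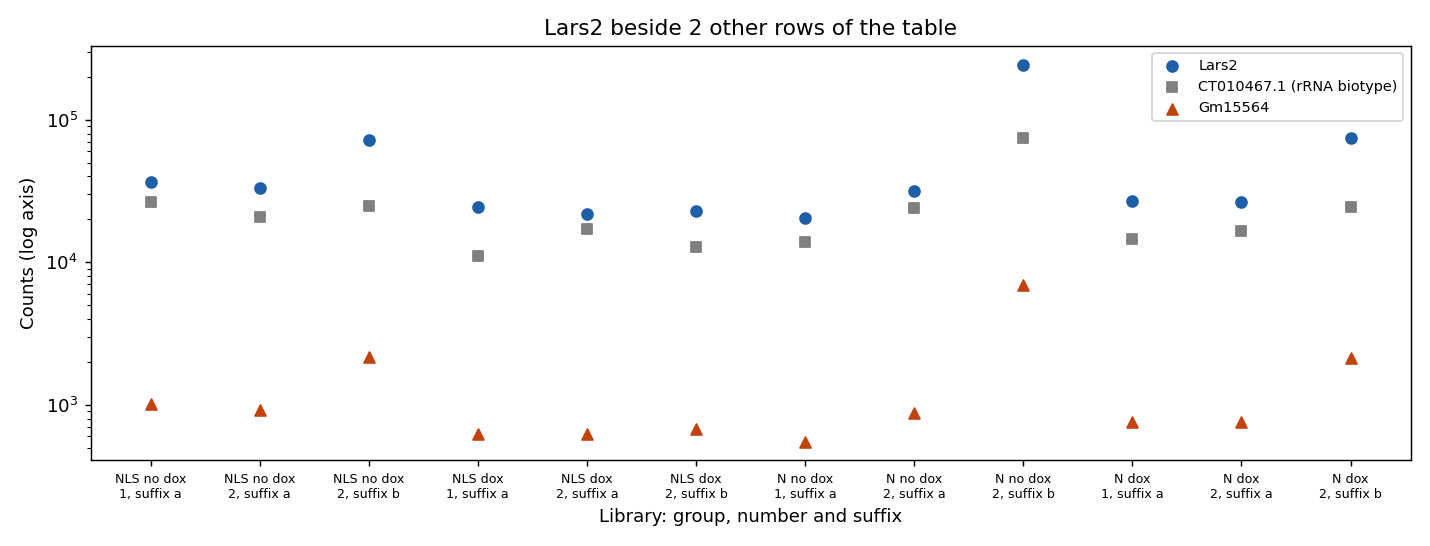
Counts (log axis) of Lars2, of Gm15564 and of CT010467.1 in each of the 12 libraries. Lars2 and Gm15564 rise and fall together, both highest in the suffix b library of N-VEGF cells without dox (243265 and 6929 counts).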

How the data were processed

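The authors trimmed single reads from TruSeq libraries with cutadapt 1.10, aligned them with TopHat2 2.1.0 and Bowtie2 2.2.6 to GRCm38, and HTSeq 0.6.1 gave the reads of each gene. The deposited values are raw counts, with 0 columns unmatched to a library. Counts were tested here with R 4.3.3 and edgeR 4.0.16 over the 13608 genes kept by filterByExpr, with TMM scaling, a quasi-likelihood F test with 1 mean per group (and a suffix term for the suffix contrast), and Benjamini-Hochberg adjustment over all genes, two-sided, called under 0.05. Adjusted p-values are edgeR's unless DESeq2 1.42.0 is named. The test was tried on simulated counts for dox against untreated NLS-N-VEGF cells (195 of 200 changed genes recovered among 13363, 11 false calls). Recovery at the spread of the fit with 1 mean per group (biological coefficient of variation 15.5%) was not tested. Nor was recovery of changes smaller than 1 log2 unit. The number recovered therefore does not bound what the dox comparisons could miss. Per-library levels of the other ATF4 targets used log2(CPM + 0.1).

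The replicate label (number and suffix) was checked as a block by the correlation of deviations from group means. It averaged 0.590 over 18 same-label pairs, with a lowest of 0.400. Over 36 different-label pairs it averaged -0.247, with a highest of 0.678. Deviations cancel within each group, so the different-label average is largely set by the same-label one and adds no separate support. By the same-label average alone, libraries of the same label varied together. The common biological coefficient of variation was 15.5% with 1 mean per group alone, 7.93% with a suffix term and 7.86% with the label block. Whether the number pairs libraries beyond the suffix was not tested. No replicates agreed within sampling noise. Members and gene lists were chosen with earlier results of these data known, and the ATF4 lists come from general knowledge. Genes were named by rule: in each class the 3 largest suffix differences and the 2 largest mean dox effects, the highest and lowest in each contrast, the 3 highest and lowest levels, and all called members. Pairs of members were compared only per kb, and Lars2 was compared with Gm15564 and CT010467.1 by raw counts.

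The alternatives were the replicate block, a suffix term, the libraries of suffix a alone, only the groups compared, DESeq2, RLE scaling, 2 other filters (1 count in any library, 10 counts in every library), leaving out each library, and, added after the data were seen, leaving out Lars2 and the length of the longest protein-coding transcript (GENCODE M21).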

Additional observations from a re-analysis of the deposited data

Results flagged for a closer look

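Within the 8 libraries of suffix a, library 1 of N-VEGF cells without dox stood far above the others for 4 cytosolic genes by Dixon's criterion: Kars, the lysine enzyme, at 321 CPM, Qars (glutamine) at 195 CPM, Wars (tryptophan) at 129.5 CPM and Yars (tyrosine) at 314 CPM. Within the 4 libraries of suffix b, that of N-VEGF cells with dox stood above the others for Yars, at 267 CPM. Each of the 35 members was examined in both suffixes, which hold libraries of all 4 groups. Chance flags about 1 in 20, and the flags share libraries.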

How the results depend on the processing

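The count of members called with dox or between the populations was 0 under every alternative except the fit with no filter beyond 1 count, which called 1 member (Lars2) with dox in each population, in the mean dox effect, and between the populations with and without dox. The share of all genes called in that fit is not given here, so this call has no background beside it. In the suffix contrast 19 members were called, 18 with the replicate block, and 11 to 19 when each library was left out in turn. The replicate block changed no call of a member other than that of Eprs. The difference of the class medians (cytosolic minus mitochondrial, log2) moved beyond the spread of single same-label sets in 3 comparisons. For dox in N-VEGF cells it ran from -0.16 to 0.0349 on leaving out each library. For the mean dox effect it ran from -0.0284 to 0.0434, and was 0.0584 in the libraries of suffix a alone. For NLS-N-VEGF minus N-VEGF cells without dox it ran from -0.175 to 0.0463. Over the named genes' suffix differences, 269 recomputed values kept the call and 54 lost it with the same direction. Of the named genes' dox effects, 154 recomputed values stayed uncalled and within 1 SE, 4 moved further without a call, and 2 (Lars2, no filter) were called. The median SE of a dox effect was 0.10 (cytosolic) and 0.12 (mitochondrial) log2 units. The rarest mitochondrial gene held 124 counts in a library, and the effect of depth was not tested. With the length of the longest protein-coding transcript the ratio of the cytosolic to the mitochondrial median level was 9.16, against 9.45 with merged exons.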
